A study of Mus musculus with 22 samples.

Results

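Livers of Fah-/- mice that had received transplanted hepatocytes, lost their NTBC and been given vehicle for 28 days were compared with Fah-/- livers of day 0. The comparison takes the 8 libraries titled td-Hepa-Vehicle (D28) against the 7 titled Fah (D0), which are 15 of the 22 libraries of the study, and follows them across all genes. Both groups carry the Fah-/- label, and the day 0 livers are labelled as normal liver. The 8 vehicle livers came from recipients of hepatocytes labelled td, a prefix the labels do not spell out, and received an unnamed vehicle after NTBC was withdrawn. The other 7 libraries, from transplanted mice given an agent labelled YC, entered the shared estimate of spread and the choice of genes tested. YC levels are also given for a few genes. Transplantation, NTBC withdrawal, vehicle and 28 days of time separate the groups together, so their parts cannot be told apart. The sources used here do not give age, sex, strain, the origin of the transplanted cells, the NTBC status on day 0 or the hour of collection, and whole liver holds host and transplanted cells side by side.

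Fah encodes fumarylacetoacetate hydrolase, which carries out the final step in the breakdown of tyrosine. Without it, toxic intermediates build up in hepatocytes unless NTBC blocks the pathway upstream at Hpd, and these intermediates injure and kill the cells once the drug is taken away. Hepatocytes with a working Fah gene survive that selection, divide and can repopulate the liver, which is why the model is used to study liver regeneration and cell transplantation.

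The deposited values are RPKM, which divide reads by gene length and by the size of the library. Estimated depth was 51100000 to 66200000 reads or fragments in D0 livers and 51100000 to 71900000 in vehicle livers. The hepatocyte genes Alb, Ttr and Apoa1 stood at 32573 to 51561 RPKM, 3893 to 5276 RPKM and 3494 to 5491 RPKM in D0 livers and at 38276 to 72566 RPKM, 3976 to 7512 RPKM and 7463 to 10878 RPKM in vehicle livers, so these defining hepatocyte genes were abundant in all 15 livers. Some libraries stood apart. The library labelled vehicle 1 held pancreatic enzyme transcripts, with 65.3 RPKM of the trypsinogen gene Prss2 against at most 0.234 in the other vehicle livers and at most 0.409 in D0 livers. Vehicle 3 held skeletal muscle transcripts, with 1311 RPKM of the muscle actin gene Acta1 against at most 0.975 in the others. D0 1 and D0 2 differed from the other D0 livers in clock genes, given below. No genotype control with an intact liver and no untransplanted liver of day 28 entered the comparison.

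Transcripts of the Y chromosome separated the groups. Ddx3y, Kdm5d and Uty, Y-linked genes of general cell function, were listed at 0 in all 7 D0 livers. In vehicle livers Ddx3y ranged from 1.46 to 13.5 RPKM (median 4.53), Kdm5d from 0.324 to 2.06 RPKM (median 0.786) and Uty from 0.536 to 3.28 RPKM (median 0.914). Eif2s3y, a Y-linked translation initiation subunit, was at 0 in 6 D0 livers and 0.0454 RPKM in D0 4, against 3.00 to 16.8 RPKM (median 9.49) in vehicle livers. All 8 vehicle livers therefore held male RNA and the D0 livers held almost none. The X-linked partners that escape inactivation moved the other way. Kdm6a, a histone demethylase gene (mm10 chromosome X, 18162575 to 18279936), ranged from 6.34 to 10.5 RPKM (median 8.36) in D0 livers and 1.68 to 4.88 RPKM (median 2.09) in vehicle livers, with no overlap (log2 fold change -1.57 ± 0.20, SE, limma adjusted p = 6.95e-07). Eif2s3x fell from a D0 range of 19.7 to 31.3 RPKM (median 24.1) to 5.83 to 20.1 RPKM (median 9.70), with vehicle 1 reaching the D0 values (-1.35 ± 0.23, SE), and Kdm5c changed by -0.56 ± 0.13 (SE). Sex of the RNA and the group cannot be told apart here.

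Fah itself was examined first, as the gene named in the genotype. Fah (mm10 chromosome 7, 84585159 to 84606722) lay at 21.1 to 38.7 RPKM (median 28.6) in D0 livers and 271 to 542 RPKM (median 401) in vehicle livers. The highest D0 liver was far below the lowest vehicle liver, vehicle 1. On the log2 scale the mean was 3.76 higher in vehicle livers, or 13.5-fold (two-sided exact permutation p = 0.000155, the smallest that 6435 regroupings can give). The day 0 livers thus held some transcript of the gene, and where the gene was disrupted was not stated in the labels.

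The rest of the tyrosine pathway moved less than Fah. Of its 7 other genes, 2 rose (28.6%) and none fell, with a median log2 fold change of 0.32. The share that rose was near the 28.2% of all genes tested, described below. A fit of the 15 libraries alone called 5 higher and 1 lower, and array weights called 4 higher. Tat, tyrosine aminotransferase, the entry step (mm10 chromosome 8, 109990437 to 109999803), ranged from 135 to 223 RPKM (median 189) in D0 livers and 419 to 906 RPKM (median 534) in vehicle livers. The groups did not overlap (1.62 ± 0.26, SE, limma adjusted p = 1.39e-05). Pcbd1, which recycles tetrahydrobiopterin, overlapped between groups and rose by 0.47 ± 0.17 (SE), a call that ended without D0 2 (0.40). Hpd, the enzyme that NTBC inhibits, ranged from 836 to 1335 RPKM (median 1095) in D0 livers and 932 to 1972 RPKM (median 1543) in vehicle livers and was not called (0.46 ± 0.22, SE), though it was called at 0.55 without vehicle 1 and at 0.46 in a fit of the 15 libraries alone. Hgd at 0.32 ± 0.14 and Gstz1 at 0.31 ± 0.16 (SE), which act between Hpd and Fah, were not called either.

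In all, 12537 genes reached 0.5 RPKM in 7 or more of all 22 libraries, YC livers included, and were tested. A gene was called where the limma adjusted p lay under 0.05, which held for 7278 genes (58.1%). Vehicle livers had the higher level for 3535 of them, 28.2% of the genes tested, and the lower level for 3743, 29.9%. Changes of at least 2-fold were fewer, with 1095 genes higher (8.73%) and 809 lower (6.45%). For 1406 genes (11.2%) every vehicle liver lay above every D0 liver, and for 1469 (11.7%) every vehicle liver lay below. The median difference of all genes tested was 0.00 on the log2 scale, and the gene groups below are set against these shares. Transcript length moved with the comparison. In the fifth of genes with the shortest annotated transcripts the median was 0.13, with 31.6% higher and 22.7% lower, and in the fifth with the longest it was -0.20, with 20.5% higher and 41.6% lower. The part of length in any gene group was not tested.

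**Figure D1:**
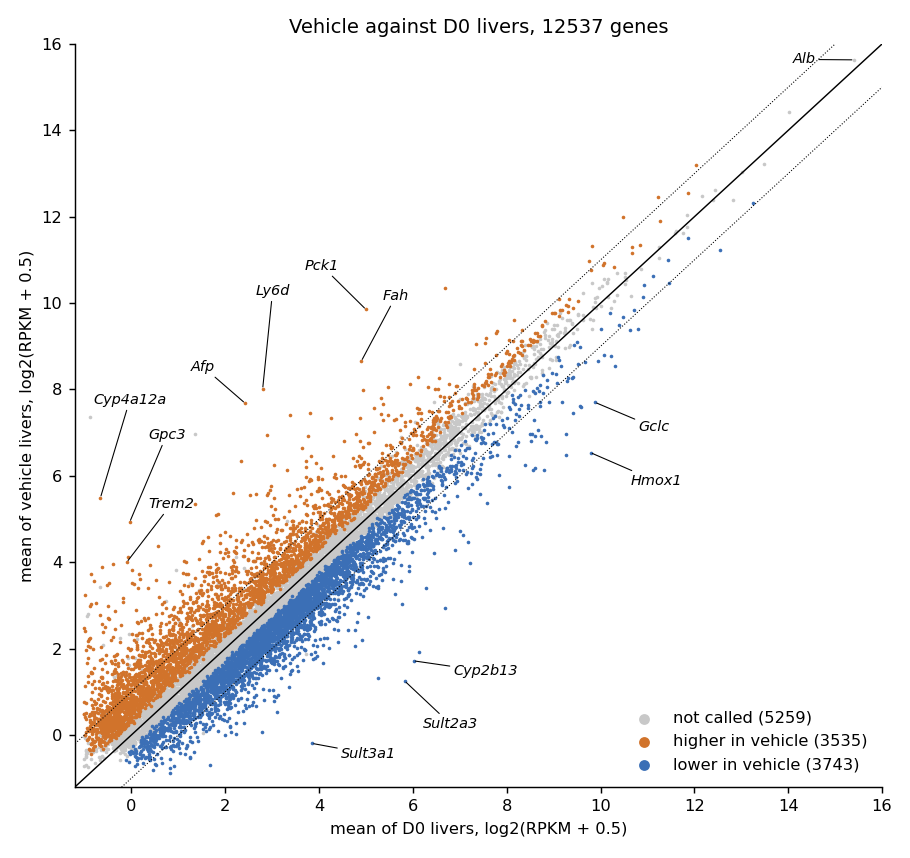
Mean level of each of 12537 genes in the 7 D0 livers (horizontal) and the 8 vehicle livers (vertical), both as log2(RPKM + 0.5), coloured by the limma call, with the solid line marking equal levels and the dotted lines 2-fold differences. Orange genes (3535) were higher and blue genes (3743) lower in vehicle livers, and the named genes include the largest rises and falls.

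The largest rises among genes of at least 5 RPKM in 1 group joined a male-biased enzyme, fetal liver genes, a gluconeogenic enzyme and macrophage genes. Cyp4a12a, an arachidonic acid hydroxylase of male mouse liver (mm10 chromosome 4, 115299046 to 115332815), ranged from 0.0241 to 0.411 RPKM (median 0.0939) in D0 livers and 17.6 to 102 RPKM (median 30.5) in vehicle livers, the largest log2 fold change among them at 5.90 ± 0.31 (SE, limma adjusted p = 1.54e-12). Its near copy Cyp4a12b changed by 4.44 ± 0.29 (SE), and how reads were divided between the 2 genes is uncertain. Pck1, phosphoenolpyruvate carboxykinase, which starts glucose synthesis (mm10 chromosome 2, 173153048 to 173159273), ranged from 11.9 to 61.4 RPKM (median 27.5) in D0 livers and 274 to 1333 RPKM (median 953) in vehicle livers. Vehicle 1 was the low liver, and even it exceeded every D0 liver (4.96 ± 0.34, SE, limma adjusted p = 1.09e-10). Ly6d, a lipid-anchored surface protein gene (mm10 chromosome 15, 74762056 to 74763620), rose by 5.24 ± 0.36, with D0 livers at 2.84 to 12.7 RPKM and vehicle livers at 124 to 504 RPKM. Ggt1, the cell surface enzyme that opens glutathione breakdown, rose by 4.02 ± 0.30, with D0 livers at 0.199 to 0.647 RPKM and vehicle livers at 6.19 to 33.6 RPKM. Spink1, a secreted trypsin inhibitor, was at most 0.371 RPKM in D0 livers and 4.72 to 26.1 RPKM in vehicle livers (4.18 ± 0.35, SE). Sprr1a, a small proline-rich protein gene induced in stressed epithelia, rose by 4.01 ± 0.52 (SE). None of these genes overlapped between the groups, against 11.2% of all genes with every vehicle liver above every D0 liver. These genes and the largest falls below were picked for the size of their change, which partly fixes that separation. Cyp4a12a, Cyp4a12b and Spink1 were also under 0.5 RPKM in every D0 liver and passed the filter through day 28 libraries alone.

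The largest falls were mostly those of enzymes known to be higher in female mouse liver. Sult2a3, a steroid sulfotransferase (mm10 chromosome 7, 14067446 to 14123044), ranged from 16.3 to 106 RPKM (median 58.5) in D0 livers and 0.137 to 4.66 RPKM (median 1.21) in vehicle livers, with no overlap (-4.72 ± 0.67, SE, limma adjusted p = 6.79e-06). Cyp2b13, a female-predominant cytochrome P450 (mm10 chromosome 7, 26061497 to 26096197), ranged from 32.4 to 91.9 RPKM (median 63.5) in D0 livers and 0.273 to 6.50 RPKM (median 1.84) in vehicle livers (-4.56 ± 0.38, SE). Cyp3a44 fell by 4.30 and Sult3a1 by 4.09 on the log2 scale, each with every vehicle liver below every D0 liver. Cyp2c69 and Cyp3a16 fell by 3.51 and 3.39 with overlapping groups. Pcp4l1, a small calmodulin-related protein gene, fell by 4.14, with D0 livers at 31.8 to 48.5 RPKM and vehicle livers at 0.668 to 5.91 RPKM. Hmox1, also among the 12 largest falls, is described with the antioxidant genes. Mup17, Mup12 and Mup13 are described with the urinary proteins.

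**Figure D2:**
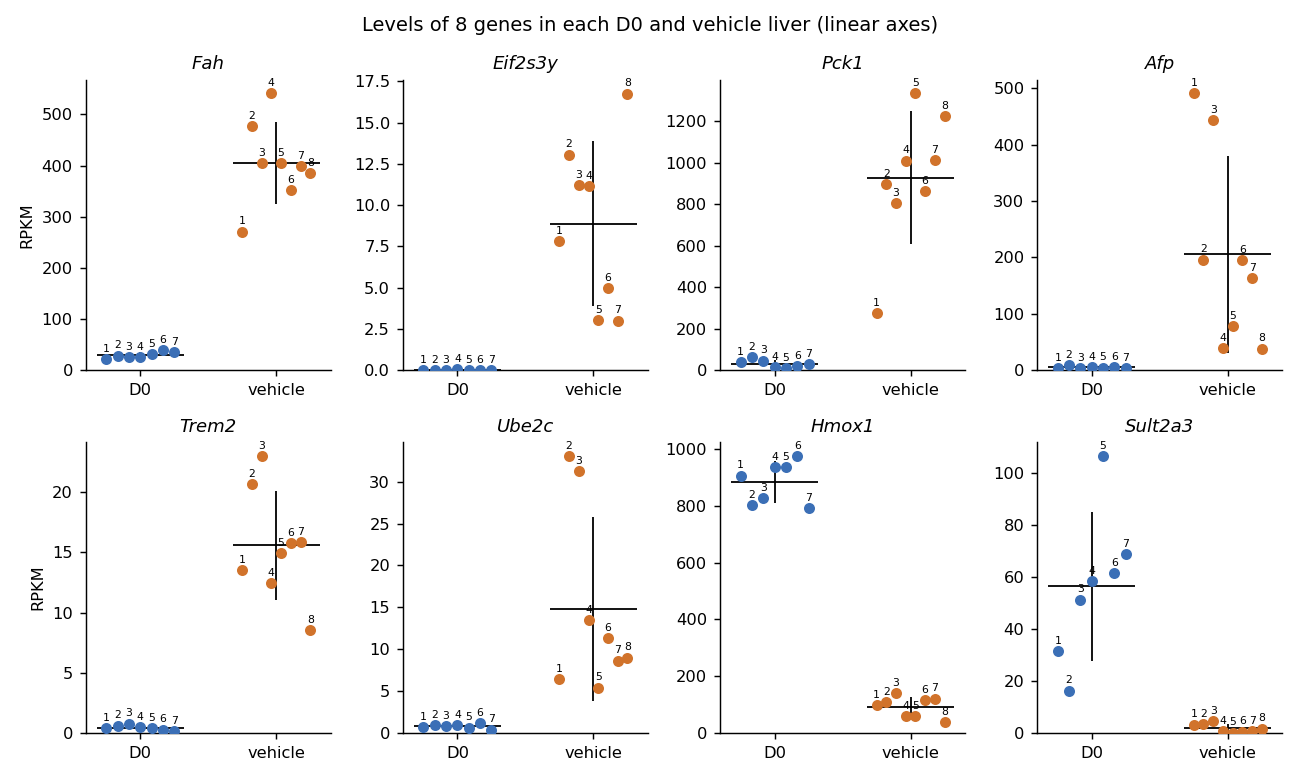
RPKM on linear axes in each of 7 D0 livers (blue) and 8 vehicle livers (orange) for 8 genes, with the replicate number above each point, a horizontal line at the group mean and a vertical line of 1 SD on either side, truncated at 0. Fah, Eif2s3y, Pck1, Afp, Trem2 and Ube2c are higher in every vehicle liver and Hmox1 and Sult2a3 lower in every vehicle liver, and vehicle 1 has the lowest Fah (271) and Pck1 (274) of its group.

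Sex-biased liver genes differed between the groups as well. Of 26 tested genes known to be higher in females, 19 fell and 3 rose (median -1.38), and 7 lay below every D0 liver in every vehicle liver. The risers were Atp6v0d2, a proton pump subunit, at 1.86 ± 0.18, and Ntrk2 and Prom1. Of 20 tested genes known to be higher in males, 12 rose and 6 fell (median 1.29), the share that fell being near the 29.9% of all genes. Of these 20 genes, 4 were under 0.5 RPKM in every D0 liver and passed the filter through day 28 libraries alone. That partly fixes the count of risers. The male-biased genes that fell included Gstp1, a glutathione transferase, at -1.09 ± 0.25, along with Cyp7b1 and Mup1. In the YC livers, 3 of 7 held Y transcripts and 4, labelled YC 4 to YC 7, had all 4 Y genes at 0. In those 4 livers Cyp4a12a was 19.1, 21.8, 51.0 and 34.1 RPKM, within the vehicle range and far above every D0 liver. Cyp2b13 was 2.76, 1.01, 0.429 and 0.615 RPKM in the same livers, below the lowest D0 liver. Kdm6a was 3.68, 5.60, 4.85 and 7.30 RPKM there, so that YC 7 reached the D0 range. The part of sex in the change of Cyp4a12a and Cyp2b13 was not tested.

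**Figure D3:**
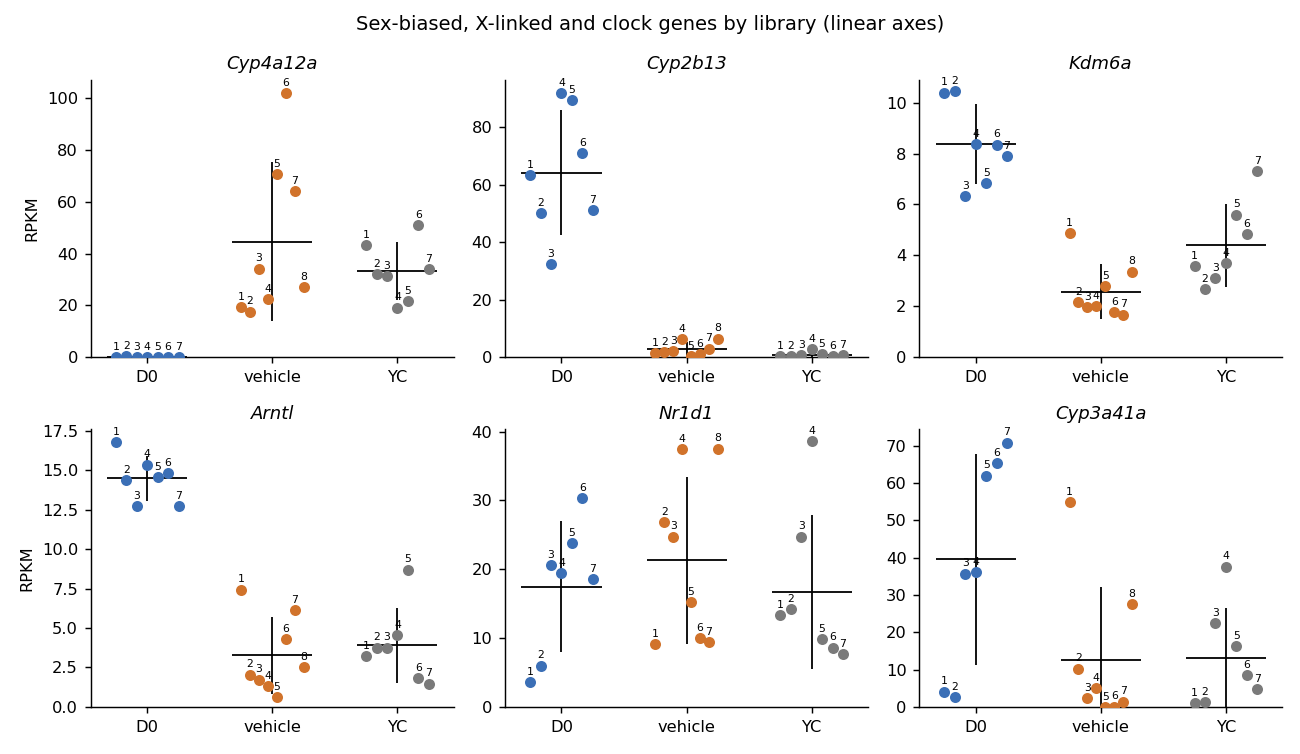
RPKM on linear axes of 2 sex-biased P450 genes, the X-linked Kdm6a, the clock genes Arntl and Nr1d1 and the P450 gene Cyp3a41a in each D0 (blue), vehicle (orange) and YC (grey) liver, numbered by replicate, with group means and 1 SD on either side truncated at 0. D0 1 and D0 2 lie apart from the other D0 livers in Nr1d1 and Cyp3a41a, and YC 4 to YC 7, which lack Y transcripts, have Cyp4a12a at 19.1 to 51.0.

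Mature hepatocyte functions changed unevenly. Of 22 secreted plasma proteins, 3 rose and none fell (median 0.24), while 7 rose in a fit of the 15 libraries alone and 7 with array weights. Albumin, Alb, was not called (0.22 ± 0.21, SE), at 43092 ± 6091 RPKM in D0 and 50803 ± 11739.7 RPKM in vehicle livers (SD, n = 7 and 8). The heme scavenger hemopexin, Hpx (mm10 chromosome 7, 105591613 to 105600137), ranged from 2148 to 2634 RPKM (median 2451) in D0 livers and 4654 to 7072 RPKM (median 5436) in vehicle livers, with no overlap (1.21 ± 0.24, SE, limma adjusted p = 0.000141). Ahsg, the plasma protein fetuin-A, and Serpina1a, an antitrypsin gene with near-identical copies, rose by 0.69 ± 0.18 and 0.77 ± 0.20 (SE).

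Drug-metabolizing enzymes fell more often than they rose. Of 35 cytochrome P450 genes, 15 fell and 4 rose (median -0.36), with 8 rising in a fit of the 15 libraries alone, and 7 of those that fell are also on the female-biased list. Cyp2a5, a coumarin hydroxylase and the most abundant member (mm10 chromosome 7, 26835305 to 26843548), ranged from 4789 to 7204 RPKM (median 5576) in D0 livers and 1022 to 4507 RPKM (median 2133) in vehicle livers (-1.44 ± 0.28, SE, limma adjusted p = 0.000149). Cyp2c38 fell by 2.34, with D0 livers at 23.9 to 50.9 RPKM and vehicle livers at 3.23 to 7.99 RPKM, while Cyp2c55 rose by 2.44 ± 0.26, with D0 livers at 2.57 to 3.90 RPKM and vehicle livers at 10.7 to 36.4 RPKM. Cyp3a11, the main inducible member of its family, rose, with D0 livers at 608 to 1062 RPKM (median 942) and vehicle livers at 1912 to 4036 RPKM (median 2403) (1.48 ± 0.22, SE). The pericentral enzymes Cyp2e1 and Cyp1a2 were not called, at -0.31 ± 0.31 and -0.66 ± 0.34 (SE).

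Of 25 conjugating enzymes, 11 fell and 4 rose (median -0.46). Ugt2b35, a glucuronosyltransferase (mm10 chromosome 5, 87000860 to 87013275), ranged from 300.1 to 420.4 RPKM (median 382) in D0 livers and 45.3 to 105 RPKM (median 62.7) in vehicle livers, with no overlap (-2.47 ± 0.21, SE, limma adjusted p = 3.62e-09). Ugt2b34 fell by 1.61. Nat8, an acetyltransferase, rose by 1.92 ± 0.19, with D0 livers at 0.0936 to 0.647 RPKM and vehicle livers at 1.75 to 4.05 RPKM, and Mgst1, the most abundant member, was not called (-0.14 ± 0.17, SE). Of 11 carboxylesterases, which hydrolyse esters and drugs, 5 fell and none rose (median -0.47). Ces1b and Ces1f fell by 1.42 and 1.35, and Ces1c, the most abundant, had a value of -0.47 ± 0.25 (SE) and was not called.

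Major urinary proteins, pheromone carriers made by the liver, spread widely within both groups. Of 21 genes 17 passed the filter on low values, 6 fell and 2 rose. The summed level, here and below over all members in the table, was 1295 to 3419.8 RPKM in D0 and 571 to 8563 RPKM in vehicle livers. Mup20, the male pheromone darcin, rose by 3.07 ± 0.47, with D0 livers at 63.9 to 179.5 RPKM (median 87.6) and vehicle livers at 278 to 3712 RPKM (median 594). Mup17 fell by 4.27, Mup12 by 3.73 and Mup13 by 3.68, with overlapping groups. Mup3 was not called (0.13 ± 0.51, SE), at 484 to 1578 RPKM in D0 and 189 to 2820.1 RPKM in vehicle livers. The list's median of -1.19 moved to -0.55 without vehicle 1 and -0.59 without D0 1 and D0 2, and reads of near-identical copies may be divided in ways that set these single values.

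Genes that mark the zones of the liver lobule showed no common direction. Of 17 pericentral genes 7 rose and 2 fell (median -0.09). Among the risers were Lhpp, a phosphatase, at 1.56 ± 0.32, and Rhbg, an ammonium transporter, at 1.05 ± 0.22. Glul, glutamine synthetase of the innermost pericentral cells, rose, with D0 livers at 58.0 to 116 RPKM (median 97.2) and vehicle livers at 102 to 221 RPKM (median 167) (0.83 ± 0.18, SE). Axin2, a Wnt feedback gene, fell by 1.42, with vehicle 1 (3.33 RPKM) inside the D0 range of 1.49 to 6.54 RPKM. D0 1 and D0 2 held 1.77 and 1.49 RPKM of it, and the other D0 livers 3.75 to 6.54 RPKM. Aldh1a1, a retinal dehydrogenase, fell by 0.87. Of 17 periportal genes 6 rose and 2 fell (median 0.32). Besides Pck1 the clearest riser was Sds, serine dehydratase, with D0 livers at 31.3 to 63.6 RPKM (median 41.4) and vehicle livers at 83.3 to 460.4 RPKM (median 262) (2.49 ± 0.27, SE). Etnppl, a phospholyase, fell by 1.08.

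Of 22 hepatocyte transcription factors 4 rose (18.2%) and 7 fell (31.8%), the latter near the 29.9% of all genes. Foxa2 and Gata4, pioneer factors of liver development, fell by 1.11 and 0.56. Foxa3 rose by 1.62 ± 0.33, with D0 livers at 3.51 to 22.3 RPKM and vehicle livers at 25.8 to 75.2 RPKM. D0 1 and D0 2 held 3.51 and 3.68 RPKM of it, and the other D0 livers 15.9 to 22.3 RPKM. Hnf4a, the master regulator of hepatocyte identity, fell by 0.35 with overlapping ranges of 112 to 143 RPKM and 82.2 to 149.8 RPKM. Cebpa was not called (-0.23 ± 0.17, SE).

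**Figure D4:**
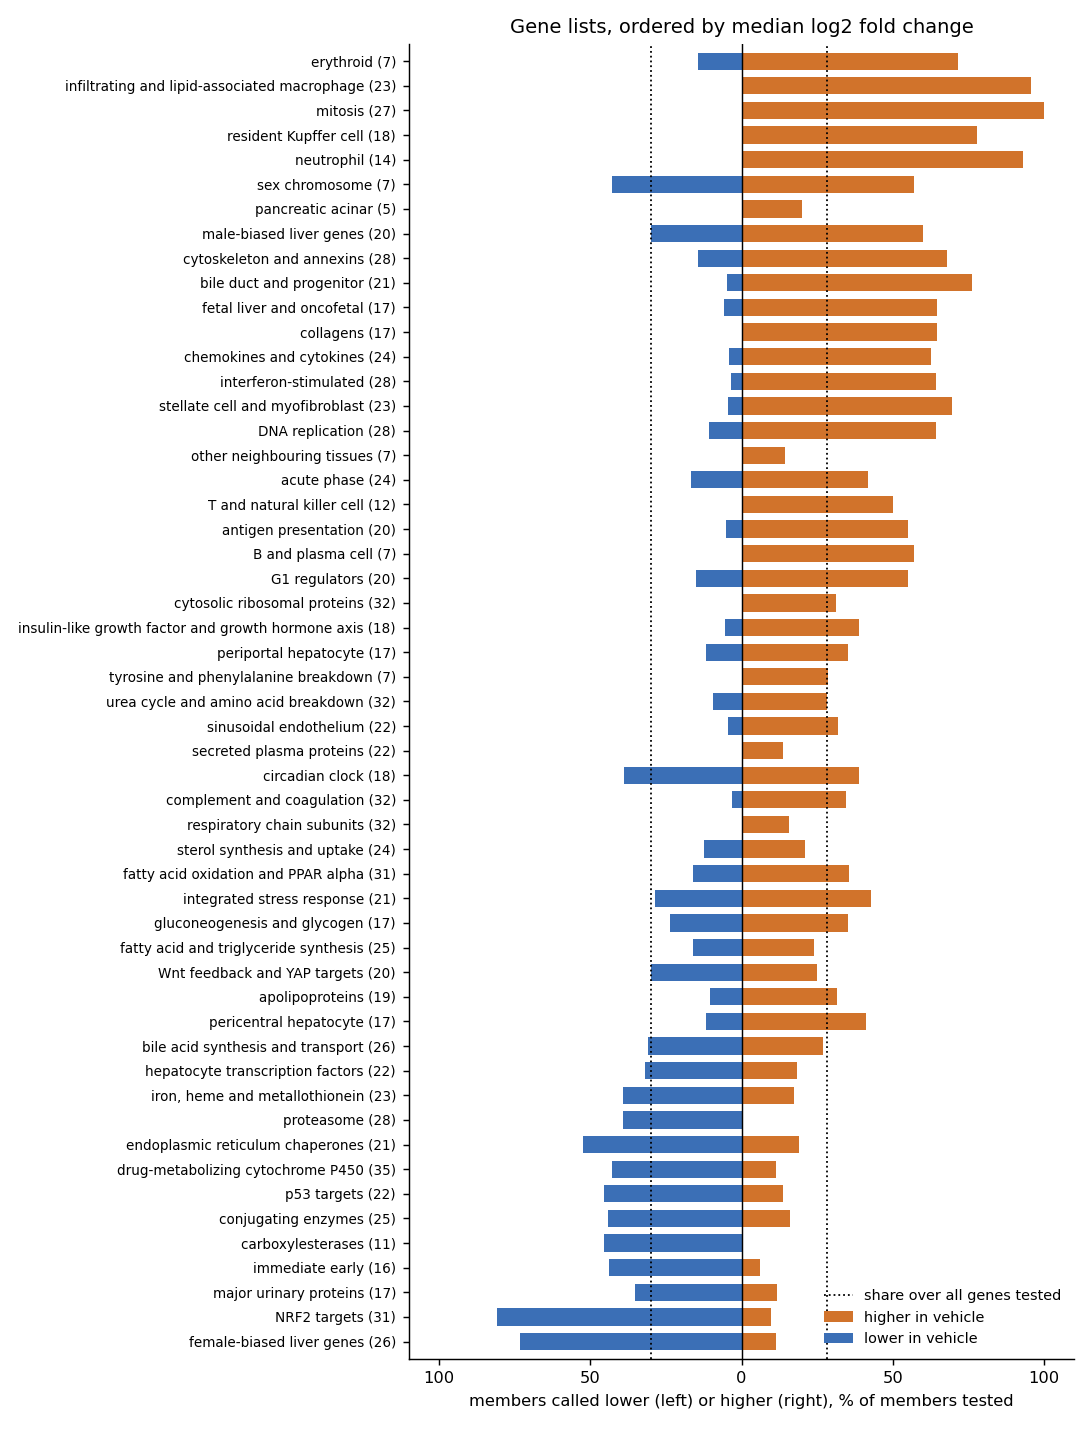
Share of tested members of each of 53 gene lists called higher (orange, right) or lower (blue, left) in vehicle than in D0 livers, in percent, with the number of members tested in brackets and lists ordered by their median log2 fold change. Dotted lines mark the shares over all 12537 genes (28.2% higher, 29.9% lower), with NRF2 targets and female-biased genes extending farthest to the left. The share of the mitosis list on the right is partly fixed by the filter on low values, which 13 of its 27 tested genes passed through day 28 libraries alone. Other lists also hold such genes.

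Fetal liver and progenitor genes were higher in vehicle livers. Of 17 tested fetal liver and oncofetal genes, of 24 listed, 11 rose and 1 fell (median 0.93). Of those tested, 4 were under 0.5 RPKM in every D0 liver and passed the filter through day 28 libraries alone. That partly fixes the count. Afp, alpha-fetoprotein, the main serum protein of the fetus (mm10 chromosome 5, 90490737 to 90508907), ranged from 3.05 to 8.68 RPKM (median 4.50) in D0 livers and 38.1 to 491 RPKM (median 179) in vehicle livers. Vehicle 1 and vehicle 3 were high, at 491 and 444 RPKM, and vehicle 4 and vehicle 8 low, at 38.9 and 38.1 RPKM, but none reached down to a D0 liver (4.79 ± 0.49, SE, limma adjusted p = 6.05e-08). Gpc3, a cell surface proteoglycan of fetal liver and liver cancer (mm10 chromosome X, 52272426 to 52613950), rose by 4.91 ± 0.32, with D0 livers at 0.0517 to 1.13 RPKM and vehicle livers at 13.7 to 58.9 RPKM. Igf2, a fetal growth factor, was at most 0.308 RPKM in D0 livers and 0.897 to 47.3 RPKM (median 6.84) in vehicle livers, the highest value belonging to vehicle 1 (3.09 ± 0.51, SE). Dlk1, a hepatoblast surface protein, stayed at or below 2.38 RPKM in every liver (1.28 ± 0.31, SE). Aldoa, the most abundant member, was not called, and vehicle 3, the library with muscle transcripts, held 533 RPKM against at most 195 in the other vehicle livers.

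Of 21 bile duct and progenitor genes 16 rose and 1 fell (median 1.10). Of those tested, 3 were under 0.5 RPKM in every D0 liver and passed the filter through day 28 libraries alone, which partly fixes that count. The summed level of the list was 129.5 to 173 RPKM in D0 and 282 to 615 RPKM in vehicle livers. Spp1, osteopontin, made by bile duct cells and macrophages (mm10 chromosome 5, 104435118 to 104441050), ranged from 25.3 to 44.9 RPKM (median 33.8) in D0 livers and 113 to 314 RPKM (median 179) in vehicle livers (2.32 ± 0.25, SE, limma adjusted p = 7.91e-08). The epithelial adhesion gene Epcam rose, with D0 livers at 0.629 to 1.76 RPKM (median 1.24) and vehicle livers at 2.26 to 9.62 RPKM (median 4.91) (1.77 ± 0.26, SE). The bile duct keratin gene Krt19 rose by 1.77 ± 0.37 and the hyaluronan receptor Cd44 by 1.49 ± 0.18 (SE). Sox9, a transcription factor of ducts and progenitors, was not called (-0.02 ± 0.15, SE), at 2.14 to 4.22 RPKM in D0 and 2.23 to 4.17 RPKM in vehicle livers. Vtcn1, a T cell inhibitory ligand, was the gene that fell, by 2.21. In whole liver, more cells of a type and more RNA per cell cannot be told apart, here and for the cell types below.

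Cytoskeletal and annexin genes rose in the same livers, with 19 of 28 higher and 4 lower (median 1.26). S100a11, a calcium-binding partner of annexins (mm10 chromosome 3, 93520488 to 93526287), ranged from 7.28 to 16.6 RPKM (median 10.9) in D0 livers and 37.3 to 221 RPKM (median 73.9) in vehicle livers (2.86 ± 0.33, SE). Tuba8 rose by 2.53 ± 0.24, Anxa5 by 1.37 ± 0.16 and the actin-binding thymosin Tmsb4x by 1.43 ± 0.29 (SE). The 4 that fell were the tubulins Tuba1c, Tubb2a and Tubb2b and the actin Actg1.

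Mitotic transcripts were low on day 0 and higher at day 28. Of 32 listed mitosis genes 27 passed the filter on low values, and all 27 that passed were called higher (median 1.61). Of these, 13 were under 0.5 RPKM in every D0 liver and met the filter through day 28 libraries alone, so they were bound to differ and the count is a description. The 5 under the filter (Bub1, Cenpe, Cenpf, Kif20a and Espl1) had no test. For 21 the vehicle livers all lay above the D0 livers. The promoters of the 3 with the smallest p are shown, because many genes of this group share a pair of short elements there. The elements are TTTGAA, the core of the cell cycle homology region, and CCAAT, the site of the factor NF-Y, searched on both strands and set in capitals where they occur. Each line gives 150 bases ending just before the RefSeq transcript start, on the gene's strand, from RefSeq on GRCm38.p6 (Ube2c at chr2:164769779-164769928 plus strand, Cdk1 at chr10:69352913-69353062 minus strand, Cdc20 at chr4:118437344-118437493 minus strand).
Ube2c: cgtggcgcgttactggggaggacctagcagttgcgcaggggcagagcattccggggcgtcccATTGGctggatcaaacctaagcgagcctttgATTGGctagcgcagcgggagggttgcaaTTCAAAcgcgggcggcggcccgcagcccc
Cdk1: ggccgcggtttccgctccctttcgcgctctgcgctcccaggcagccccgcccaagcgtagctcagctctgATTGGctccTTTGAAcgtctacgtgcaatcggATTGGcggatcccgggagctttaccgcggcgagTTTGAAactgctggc
Cdc20: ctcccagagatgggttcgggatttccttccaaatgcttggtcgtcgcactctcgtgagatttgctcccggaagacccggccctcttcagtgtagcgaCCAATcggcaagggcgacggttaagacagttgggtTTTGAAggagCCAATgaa

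Within the window from 250 bases before to 50 after the start, 16 of the 23 mitosis genes with a RefSeq promoter (69.6%) held both elements, against 7.97% of 27025 genes and 5.87% of the 9677 of these that were tested. TTTGAA alone was in 82.6% against 20.2%, and CCAAT alone in 73.9% against 41.1%. A match describes the letters only.

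Ube2c, the ubiquitin-conjugating enzyme of mitotic exit (mm10 chromosome 2, 164769898 to 164778822), ranged from 0.397 to 1.20 RPKM (median 0.795) in D0 livers and 5.42 to 33.1 RPKM (median 10.2) in vehicle livers. Vehicle 2 and vehicle 3 were highest, at 33.1 and 31.2 RPKM, and the groups did not overlap (3.29 ± 0.34, SE, limma adjusted p = 6.66e-08). Cdk1, the kinase that starts mitosis, rose by 2.67 ± 0.29, with D0 livers at 0.368 to 0.770 RPKM and vehicle livers at 3.51 to 13.4 RPKM. Cdc20, which activates the anaphase-promoting complex, rose by 3.06 ± 0.35, with D0 livers at 0.415 to 1.10 RPKM and vehicle livers at 2.89 to 21.2 RPKM. Top2a, the topoisomerase that untangles replicated DNA, and Mki67, the Ki-67 gene, lay at 1.297 to 6.35 RPKM and 0.723 to 4.31 RPKM in vehicle livers against 0.134 to 0.468 RPKM and 0.0634 to 0.235 RPKM in D0 livers. The summed level of the list was 13.5 to 20.3 RPKM in D0 and 41.3 to 206 RPKM in vehicle livers.

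**Figure D5:**
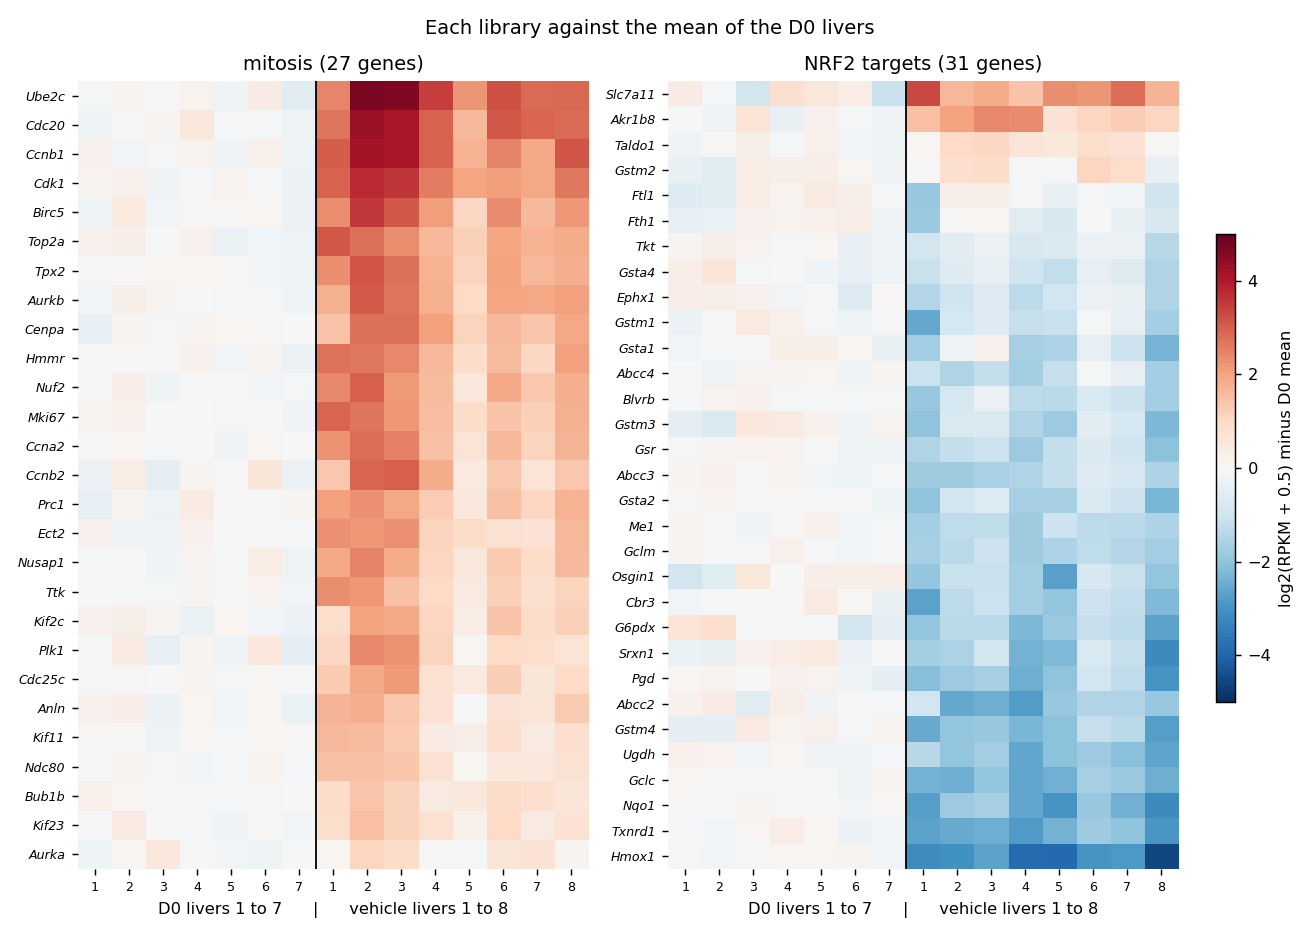
Heat maps of 27 mitosis genes (left) and 31 NRF2 target genes (right) in each of 7 D0 and 8 vehicle livers, coloured by log2(RPKM + 0.5) minus the mean of the D0 livers, red above and blue below. Vehicle 2 and vehicle 3 are the reddest columns for mitosis, and most NRF2 targets are blue in every vehicle liver, with Slc7a11, Akr1b8 and Taldo1 as the exceptions that rose.

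Genes of DNA replication rose less uniformly, 18 of 28 higher and 3 lower (median 0.70). Gins2, a helicase subunit (mm10 chromosome 8, 120578633 to 120589304), ranged from 0.256 to 1.16 RPKM (median 0.507) in D0 livers and 1.47 to 8.35 RPKM (median 3.85) in vehicle livers (2.09 ± 0.25, SE, limma adjusted p = 3.18e-07). Ung, which removes uracil from DNA, and Rfc5, a clamp loader subunit, rose by 1.53 ± 0.19 and 1.41 ± 0.20 (SE). The most abundant member went the other way. Pcna, the sliding clamp, ranged from 54.5 to 89.4 RPKM (median 67.1) in D0 livers and 27.0 to 69.5 RPKM (median 35.8) in vehicle livers, with overlapping groups (-0.75 ± 0.21, SE), and Mcm7 and Cdc45 fell with it. The element TTTGGCGC or TTTCCCGC, of the type bound by E2F factors, was in the promoters of 8 of 24 genes with one (33.3%), against 1.80% of all genes and 3.34% of the 9677 tested genes with one.

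Regulators of the G1 phase included strong changes in both directions, 11 of 20 higher and 3 lower. Ccnd1, cyclin D1, the growth signal sensor of G1 (mm10 chromosome 7, 144929931 to 144939925), ranged from 3.06 to 5.57 RPKM (median 3.84) in D0 livers and 12.4 to 25.9 RPKM (median 18.7) in vehicle livers, with no overlap (2.00 ± 0.20, SE, limma adjusted p = 4.13e-08). Myc, a growth-promoting transcription factor, fell, with D0 livers at 14.1 to 19.8 RPKM (median 17.3) and vehicle livers at 2.54 to 5.94 RPKM (median 4.17), also without overlap (-1.88 ± 0.18, SE). Cdkn1a, the inhibitor p21, fell, with D0 livers at 40.9 to 108 RPKM (median 63.8) and vehicle livers at 18.9 to 38.0 RPKM (median 27.0) (-1.17 ± 0.28, SE). Cdkn2c, the inhibitor p18, rose by 2.01 ± 0.23 (SE).

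Antioxidant genes controlled by NRF2, a factor that responds to electrophiles and oxidants, were the list with the most falls. Of 31 tested members 25 fell and 3 rose (median -1.36), and 17 lay below every D0 liver in every vehicle liver. Hmox1, heme oxygenase, which breaks down heme (mm10 chromosome 8, 75093621 to 75100589), ranged from 792 to 977 RPKM (median 907) in D0 livers and 36.9 to 139 RPKM (median 103) in vehicle livers. The 7 D0 livers lay close together and vehicle 8 was lowest (-3.36 ± 0.27, SE, limma adjusted p = 1.02e-09). Txnrd1, thioredoxin reductase, ranged from 311 to 499 RPKM (median 379.8) in D0 livers and 51.2 to 111 RPKM (median 68.1) in vehicle livers, again with no overlap (-2.45 ± 0.21, SE). Gclc, the rate-limiting enzyme of glutathione synthesis, ranged from 785 to 1024 RPKM (median 944) in D0 livers and 156 to 293 RPKM (median 180.1) in vehicle livers (-2.21 ± 0.19, SE). Nqo1, a quinone reductase, fell by 2.40, with D0 livers at 242 to 292 RPKM and vehicle livers at 28.3 to 83.8 RPKM. The abundant ferritin gene Ftl1 was not called (-0.36 ± 0.28, SE). The 3 that rose were Slc7a11, the cystine importer, at 2.15 ± 0.38, the aldose reductase gene Akr1b8 at 1.55 ± 0.24, and Taldo1.

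The promoter of Txnrd1 is shown as the member with the smallest p, among those with a RefSeq promoter, whose window holds the core of the antioxidant response element, TGACNNNGC on either strand, in capitals (RefSeq, GRCm38.p6, chr10:82859056-82859205 plus strand, 1 of 3 RefSeq starts of the gene).
Txnrd1: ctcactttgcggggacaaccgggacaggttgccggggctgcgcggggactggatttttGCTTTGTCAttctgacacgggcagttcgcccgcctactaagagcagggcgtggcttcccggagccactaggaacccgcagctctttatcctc

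This core was in 9 of 26 NRF2 targets with a RefSeq promoter (34.6%), against 14.0% of all genes and 16.9% of tested genes. The genes of the NRF2 control circuit were looked up after these values had been seen. Nfe2l2, which encodes NRF2, ranged from 42.7 to 71.0 RPKM (median 50.6) in D0 livers and 25.2 to 47.5 RPKM (median 33.3) in vehicle livers, with overlapping groups (-0.68 ± 0.14, SE, limma adjusted p = 0.000309). Keap1, which targets NRF2 for degradation, changed by -0.29 ± 0.11 (SE). Bach1, a heme-regulated repressor that competes for the same sites, ranged from 15.4 to 40.6 RPKM (median 26.1) in D0 livers and 2.44 to 5.40 RPKM (median 3.42) in vehicle livers, with no overlap (-2.69 ± 0.19, SE, limma adjusted p = 1.34e-10).

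Other stress responses were lower in part. Of 22 p53 targets 10 fell and 3 rose (median -0.41). Mdm2, which degrades p53 and is its target, fell, with D0 livers at 18.5 to 34.4 RPKM (median 23.04) and vehicle livers at 6.07 to 13.8 RPKM (median 8.17) (-1.42 ± 0.16, SE). Plk2, a kinase, fell by 1.76 and the nuclease gene Aen by 1.27. The death receptor Fas rose, by 0.75 ± 0.15, and so did Phlda3 and Pmaip1.

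The integrated stress response, which acts through ATF4, moved in both directions. Of 21 genes 9 rose (42.9%) and 6 fell (28.6%, near the 29.9% of all genes). Of these genes 2, Asns among them, were under 0.5 RPKM in every D0 liver. Both passed the filter through day 28 libraries alone. Asns, asparagine synthetase (mm10 chromosome 6, 7675169 to 7693254), ranged from 0.215 to 0.470 RPKM (median 0.427) in D0 livers and 1.71 to 17.9 RPKM (median 8.58) in vehicle livers (3.07 ± 0.38, SE, limma adjusted p = 7.99e-07), and the serine synthesis genes Phgdh and Psat1 rose with it. Atf4 itself fell by 0.81, Ddit3, the death-promoting factor CHOP, by 1.27, and Sesn2 by 1.44. The list median was 0.16 and turned to -0.11 without D0 1 and D0 2.

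Of 21 endoplasmic reticulum chaperones 11 fell and 4 rose (median -0.36). Hspa5, the chaperone BiP, fell, with D0 livers at 383 to 514 RPKM (median 470.3) and vehicle livers at 166 to 402 RPKM (median 248) (-0.83 ± 0.19, SE), and Hyou1 fell by 1.36. Of 28 proteasome subunits 11 fell and none rose (median -0.31), with Psmd14, the deubiquitinating subunit, at -1.13 ± 0.19 (SE) and Psmb4, the most abundant, not called (-0.11 ± 0.18, SE). Of 16 immediate early genes 7 fell and 1 rose (median -0.61). Without D0 1 and D0 2 these became 5 and 5 with a median of -0.05, so the direction of this list rested on those 2 livers. Atf3 reached 48.8 RPKM in a D0 liver against a D0 median of 14.7 and vehicle values of 2.63 to 9.74 RPKM.

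Macrophage genes were higher at day 28. Of 23 genes of infiltrating and lipid-associated macrophages 22 rose and none fell (median 2.17). Of these genes 5 were under 0.5 RPKM in every D0 liver and passed the filter through day 28 libraries alone, and the summed level was 418 to 546 RPKM in D0 and 963 to 2168 RPKM in vehicle livers. Trem2, a lipid-sensing receptor of such macrophages (mm10 chromosome 17, 48346401 to 48354147), ranged from 0.139 to 0.777 RPKM (median 0.405) in D0 livers and 8.55 to 23.0004 RPKM (median 15.3) in vehicle livers, with no overlap (4.08 ± 0.18, SE, limma adjusted p = 1.48e-13). Gpnmb, a glycoprotein of lipid-laden macrophages, rose by 3.67 ± 0.22, with D0 livers at 0.0399 to 0.234 RPKM and vehicle livers at 3.65 to 14.6 RPKM. Mmp12, the macrophage elastase, rose by 3.98 ± 0.20, with D0 livers at 0.0499 to 0.403 RPKM and vehicle livers at 8.81 to 14.1 RPKM. Cd63, a lysosomal tetraspanin that hepatocytes also make, rose by 3.20 ± 0.19, and Ctsd, a lysosomal protease and the most abundant member, by 0.94 ± 0.15 (SE). Ccl2, the monocyte attractant, was the member not called (0.65 ± 0.37, SE).

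Resident Kupffer cell genes rose too, 14 of 18 with none lower (median 1.57). Their summed level was 335 to 647 RPKM in D0 and 841 to 2487 RPKM in vehicle livers. C1qb, a complement component made by macrophages (mm10 chromosome 4, 136880129 to 136886187), ranged from 27.2 to 65.8 RPKM (median 38.5) in D0 livers and 121 to 431 RPKM (median 209.6) in vehicle livers (2.41 ± 0.24, SE, limma adjusted p = 3.96e-08). Csf1r, the receptor of the macrophage growth factor, rose by 1.66 ± 0.17, and Clec4f, a lectin of Kupffer cells, by 1.64 ± 0.22, with D0 livers at 23.3 to 46.3 RPKM and vehicle livers at 59.2 to 208 RPKM. Timd4, a receptor of embryo-derived resident cells, was not called (0.72 ± 0.33, SE).

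Neutrophil, lymphocyte and red cell genes spread widely among livers. Of 17 neutrophil genes 14 passed the filter on low values and 13 of them were called higher. Of those that passed, 7 were under 0.5 RPKM in every D0 liver and so passed through day 28 libraries alone, which partly fixes that count. The summed level of all 17 was 5.75 to 60.4 RPKM in D0 and 50.5 to 175 RPKM in vehicle livers. S100a9, a calprotectin subunit, ranged from 2.17 to 28.8 RPKM (median 3.99) in D0 livers and 18.4 to 69.1 RPKM (median 26.8) in vehicle livers (2.50 ± 0.52, SE), and D0 2 was the 1 D0 liver to reach the vehicle range. Ly6g, the defining surface marker, stayed below 1 RPKM in every liver and was not called (0.59 ± 0.28, SE). Of 23 T and natural killer cell genes 12 passed and 6 rose (10 without vehicle 1 and vehicle 8), led by Cd3d of the T cell receptor complex (0.90 ± 0.24, SE) and the chemokine Ccl5, and of 15 B and plasma cell genes 7 passed and 4 rose. Of 7 erythroid genes 5 rose and Tfrc, the transferrin receptor, fell. Hbb-bs, adult beta globin, ranged from 12.2 to 66.8 RPKM (median 26.6) in D0 livers and 27.5 to 724 RPKM (median 146) in vehicle livers, so globin spread widely in both groups, and its part in the neutrophil and lymphocyte values was not tested.

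Interferon-stimulated genes rose in 18 of 28 cases and fell in 1 (median 0.86). Irf7, a transcription factor that amplifies interferon signals (mm10 chromosome 7, 141262706 to 141266481), ranged from 9.35 to 20.1 RPKM (median 14.0) in D0 livers and 29.4 to 197 RPKM (median 76.0) in vehicle livers, with no overlap (2.46 ± 0.28, SE, limma adjusted p = 1.78e-07). Usp18, a negative regulator of interferon receptors, rose by 2.15 ± 0.17, with D0 livers at 1.93 to 3.47 RPKM and vehicle livers at 9.49 to 23.2 RPKM. Oas1a, an RNA sensor, rose by 1.75 ± 0.21, and Bst2, the virus tether tetherin, by 0.84 ± 0.24 with overlapping groups. Cxcl10 was not called (0.30 ± 0.32, SE). The promoters of Oas1a and Bst2 are shown for the element they share, GAAA followed by any 2 bases and a second GAAA, on either strand, which resembles the site bound by the interferon-activated factor complex and is in capitals, with overlapping matches run together. They are from RefSeq on GRCm38.p6 (Oas1a at chr5:120907526-120907675 minus strand, Bst2 at chr8:71537473-71537622 minus strand).
Oas1a: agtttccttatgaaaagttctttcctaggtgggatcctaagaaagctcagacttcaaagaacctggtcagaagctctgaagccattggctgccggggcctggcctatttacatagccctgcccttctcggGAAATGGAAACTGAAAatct
Bst2: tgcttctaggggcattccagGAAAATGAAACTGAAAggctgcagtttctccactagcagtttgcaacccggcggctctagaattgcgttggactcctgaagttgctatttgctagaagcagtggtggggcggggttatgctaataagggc

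This element was in 14 of 22 interferon-stimulated genes with a RefSeq promoter (63.6%), against 3.99% of all genes and 3.89% of tested genes. Antigen presentation rose alongside, 11 of 20 genes with 1 lower (median 0.59). H2-Aa, a class II chain (mm10 chromosome 17, 34282744 to 34287823), ranged from 24.1 to 87.9 RPKM (median 31.5) in D0 livers and 96.5 to 209.7 RPKM (median 156) in vehicle livers (2.03 ± 0.25, SE). The class II invariant chain Cd74 rose by 1.85 ± 0.31, while B2m, the shared class I chain, rose by 0.47 ± 0.19 (SE), a call lost under 15 of the 27 other settings tried.

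Of 24 tested chemokines and cytokines 15 rose and 1 fell (median 0.87). Cxcl16, Ccl6 and Il18 rose by 1.42 ± 0.17, 2.24 ± 0.28 and 1.45 ± 0.17 (SE), and Cxcl12, the most abundant, fell by 0.44. Among 24 acute phase genes 10 rose and 4 fell. Lcn2, lipocalin 2 (mm10 chromosome 2, 32384633 to 32388252), ranged from 2.95 to 7.16 RPKM (median 4.27) in D0 livers and 24.2 to 273 RPKM (median 49.8) in vehicle livers (3.61 ± 0.39, SE). Saa1, serum amyloid A, was 7.58 to 20.8 RPKM in D0 livers and spread over 48.3 to 569 RPKM in vehicle livers, vehicle 1 being highest (3.27 ± 1.00, SE). The metallothioneins Mt1 and Mt2, which bind zinc, fell by 1.19 and 1.58.

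Collagen genes rose, 11 of 17 with none lower (median 0.89). Col1a1, the main chain of scar collagen (mm10 chromosome 11, 94936224 to 94953042), ranged from 0.168 to 1.21 RPKM (median 0.578) in D0 livers and 2.34 to 11.1 RPKM (median 5.24) in vehicle livers, with no overlap (2.38 ± 0.40, SE, limma adjusted p = 2.79e-05). Col3a1 and Col1a2 rose by 2.37 ± 0.37 and 2.15 ± 0.30. Of 23 genes of stellate cells and myofibroblasts 16 rose and 1 fell (median 0.86). Loxl1, which cross-links elastin, rose by 2.06 ± 0.25, the intermediate filament gene Vim by 1.63 ± 0.22 and the protease inhibitor Timp1 by 1.77 ± 0.27 (SE). Acta2, smooth muscle actin, overlapped between groups, at 0.271 to 13.5 RPKM and 1.24 to 24.4 RPKM (2.02 ± 0.66, SE). Dcn, decorin, the most abundant member, was not called (0.50 ± 0.26, SE). Sinusoidal endothelial genes moved less, 7 of 22 higher (31.8%, near the 28.2% of all genes) and 1 lower (median 0.25). Wnt2, a pericentral Wnt signal, rose by 0.82 ± 0.17 and Kdr, a receptor of vascular growth factor, fell by 0.53.

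Lipid genes changed one by one rather than together. Of 24 sterol genes 5 rose and 3 fell (median 0.18, -0.03 without vehicle 1), and 6 fell with array weights. Fdps, farnesyl diphosphate synthase, ranged from 31.9 to 67.0 RPKM (median 54.2) in D0 livers and 71.7 to 313 RPKM (median 138) in vehicle livers (1.61 ± 0.44, SE). Of 25 genes of fatty acid and triglyceride synthesis 6 rose and 4 fell. Me1, malic enzyme, which supplies NADPH and is also an NRF2 target, fell, with D0 livers at 150.2 to 206 RPKM (median 165) and vehicle livers at 50.2 to 82.3 RPKM (median 67.8) (-1.40 ± 0.16, SE), and Scd1, the most abundant, was not called (0.55 ± 0.50, SE). Of 31 genes of fatty acid oxidation 11 rose and 5 fell. Fabp1, the liver fatty acid carrier, rose by 1.44 ± 0.23, and Acaa2, a thiolase, by 0.73 ± 0.11 without overlap, with D0 livers at 481 to 624 RPKM and vehicle livers at 713 to 1049 RPKM.

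Of 26 bile acid genes 7 rose (26.9%) and 8 fell (30.8%), shares near the 28.2% and 29.9% of all genes. Cyp7a1, the rate-limiting enzyme of bile acid synthesis, ranged from 1.81 to 20.9 RPKM (median 7.37) in D0 livers and 14.3 to 159.7 RPKM (median 28.7) in vehicle livers, with overlap (2.41 ± 0.57, SE, limma adjusted p = 0.0011). Slc10a2, a bile acid importer, was at most 0.276 RPKM in D0 livers and 2.23 to 13.03 RPKM in vehicle livers (3.01 ± 0.31, SE). Abcc2, the export pump of the bile canaliculus, fell, with D0 livers at 112 to 224 RPKM (median 165) and vehicle livers at 23.8 to 86.9 RPKM (median 45.2) (-1.94 ± 0.24, SE).

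In glucose metabolism Pck1, G6pc, the glycogen synthase gene Gys2 and the glycogen gene Ppp1r3g rose, while some other glycogen genes fell. The glycogen genes Pygl and Ppp1r3b were not called. Ppp1r3c, which directs phosphatase to glycogen (mm10 chromosome 19, 36731731 to 36736653), ranged from 77.3 to 173 RPKM (median 145) in D0 livers and 12.6 to 38.4 RPKM (median 23.9) in vehicle livers, with no overlap (-2.49 ± 0.25, SE, limma adjusted p = 3.18e-08). Gbe1, which adds branches to glycogen, and Ugp2 fell as well. Over the 17 genes of the list 6 rose (35.3%) and 4 fell (23.5%), against 28.2% and 29.9% of all genes. Of 32 genes of the urea cycle and amino acid breakdown 9 rose (28.1%, near the 28.2% of all genes) and 3 fell. A fit of the 15 libraries alone called 15 higher, and array weights called 16 higher and 6 lower. Got1, an aspartate aminotransferase, rose, with D0 livers at 41.0 to 62.4 RPKM (median 54.0) and vehicle livers at 123 to 212 RPKM (median 170.2) (1.65 ± 0.18, SE). Tdo2, the first enzyme of tryptophan breakdown, fell, with D0 livers at 1421 to 2158 RPKM (median 1784) and vehicle livers at 528 to 893 RPKM (median 673) (-1.40 ± 0.23, SE), both without overlap. Cps1, the entry enzyme of the urea cycle, lay higher in every vehicle liver, at 438 to 907 RPKM against 223 to 428 RPKM, yet was not called (0.61 ± 0.28, SE, limma adjusted p = 0.0628). The YC livers, which entered the shared estimate of spread, ran from 214 to 1030 RPKM of Cps1.

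Of 19 genes of lipoprotein assembly 6 rose (31.6%, near the 28.2% of all genes) and 2 fell. Apoa1, the main protein of HDL, rose, with D0 livers at 3494 to 5491 RPKM (median 3988) and vehicle livers at 7463 to 10878 RPKM (median 9217) (1.17 ± 0.15, SE). Of 32 complement and coagulation genes 11 rose and 1 fell (4 fell without vehicle 1), with C9 at 1.23 ± 0.27 (SE) and C3, the most abundant, not called (-0.07 ± 0.38, SE). Of 23 iron, heme and metallothionein genes 9 fell and 4 rose. Tfrc fell, with D0 livers at 37.6 to 64.8 RPKM (median 54.4) and vehicle livers at 3.65 to 35.4 RPKM (median 8.94) (-2.44 ± 0.28, SE), and the manganese exporter Slc30a10 by 1.77. Hamp, hepcidin, the hormone that limits iron uptake, rose by 1.34 ± 0.33 with overlapping groups. In the growth factor axis 7 of 18 genes rose and 1 fell. Igfbp2, a binding protein of insulin-like growth factors, rose, with D0 livers at 156 to 263 RPKM (median 176) and vehicle livers at 391 to 782 RPKM (median 495) (1.53 ± 0.18, SE).

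Clock genes differed between and within the groups. Of 18 tested clock genes 7 rose and 7 fell. Arntl, the BMAL1 activator of the clock (mm10 chromosome 7, 113207465 to 113314126), ranged from 12.7 to 16.8 RPKM (median 14.6) in D0 livers and 0.617 to 7.43 RPKM (median 2.29) in vehicle livers, with no overlap (-2.26 ± 0.34, SE, limma adjusted p = 8e-06). Cry1 and Clock fell by 1.64 and 1.18. Dbp, an output gene of the clock, spread from 0.665 to 5.53 RPKM (median 2.82) in D0 livers and 2.48 to 50.9 RPKM (median 21.5) in vehicle livers. D0 1 and D0 2 held 3.57 and 5.99 RPKM of Nr1d1, the clock repressor REV-ERB alpha, against 18.5 to 30.3 RPKM in the other D0 livers. The same 2 livers held 4.08 and 2.69 RPKM of Cyp3a41a, a female-biased P450, against 35.7 to 70.9 RPKM. The hour of collection and the group cannot be told apart, and without D0 1 and D0 2 the comparison still called 6423 genes.

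Counts of housekeeping lists depended on which libraries entered. Of 32 ribosomal protein genes 10 rose (31.25%, near the 28.2% of all genes) and none fell (median 0.37). Of these 32 genes 19 rose without vehicle 1, 4 without D0 1 and D0 2 and 25 with array weights. Of 32 respiratory chain subunits 5 rose, with 12 rising and 1 falling without vehicle 1, 1 rising without D0 1 and D0 2 and 14 rising with array weights. Cox4i1, the most abundant, rose by 0.63 ± 0.19 (SE). Of 20 Wnt feedback and YAP target genes 5 rose and 6 fell, shares near those of all genes. Axl, a receptor kinase, rose by 1.74 ± 0.14 and Znrf3, which removes Wnt receptors, fell by 0.97.

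How the 8 vehicle livers varied with their level of Fah was examined for 6 genes. Across these livers log2 Fah and log2 Col1a1 had Pearson r = -0.87 (two-sided exact permutation p = 0.00732, Benjamini-Hochberg over 6 relations 0.0439) and Spearman rho = -0.79 (exact permutation p = 0.0279, adjusted 0.168). Vehicle 1 and vehicle 4 were the livers farthest from the median of Fah, and without them r was -0.47, so the relation rested on those livers. Pearson r was -0.57 for Afp, -0.45 for Top2a, -0.19 for Hmox1, -0.29 for Cyp2c50 and 0.61 for Mup3, with adjusted permutation p-values of 0.261, 0.387, 0.638, 0.604 and 0.261. Spearman rho for the same genes was -0.33, -0.45, -0.10, -0.21 and 0.31, with adjusted permutation p-values of 0.693, 0.693, 0.840, 0.743 and 0.693. Without vehicle 1 and vehicle 4, r was 0.16, 0.52, 0.13, -0.06 and -0.35, so that Afp, Top2a, Hmox1 and Mup3 changed sign.

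Markers of neighbouring tissues were checked beside these results. Of 20 pancreatic genes 5 passed the filter, and the summed level of the 19 in the table was 6.09 to 13.02 RPKM in D0 and 17.5 to 595 RPKM in vehicle livers, vehicle 1 being highest. Cela1, an elastase also made by liver, was the one called, at 1.53 ± 0.29 (SE). Of 20 genes of muscle, fat, gut, kidney and other epithelia 7 passed, and all 20 summed to 42.1 to 78.4 RPKM in D0 and 74.0 to 4137 RPKM in vehicle livers, the highest in vehicle 3. Fabp4, the fatty acid carrier of fat cells and macrophages, was the one called, at 1.98 ± 0.52 (SE). Vehicle 1 and vehicle 3 held the most Fabp4 of the vehicle livers, at 115 and 180 RPKM. The same livers held 46.7 and 9.71 RPKM of the fat gene Cfd, against at most 0.348 in the other vehicle livers and 4.91 in D0 5. Leaving out vehicle 1 gave 7679 called genes and called 22 macrophage, 27 mitosis and 11 collagen genes higher and 24 NRF2 targets lower. The part of these tissues in single genes was not tested.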

How the data were processed

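Bulk RNA-seq of poly(A)-selected RNA from whole liver (per the labels' protocols) was read from the 1 table that the authors deposited, which gives RPKM per gene for 22 libraries. Per the submitters' processing notes the tools were TopHat 1.4.1 and Cufflinks 1.3.0 with the mouse build mm10, and the sources used here do not give further parameters. RPKM keeps no counts, so depth was estimated from the steps between low values of single-transcript genes, and 88 of 368 such genes gave matching estimates. Samples were grouped by their titles, and nothing says that they came from separate animals, so p-values reflect only how these libraries vary, which may be technical.

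Genes that reached 0.5 RPKM in 7 or more libraries (12537 of 18716 table rows) were tested as log2(RPKM + 0.5) with limma 3.58.1 in R 4.3.3 (3 groups of all 22 libraries, trended and robust variance, Benjamini-Hochberg adjustment, called at an adjusted p under 0.05, two-sided). Fold changes are on this scale, which understates changes of low genes. The filter counted all 22 libraries, so a tested gene under 0.5 RPKM in every D0 liver passed through day 28 libraries alone. The direction of such genes was partly fixed, also in several lists where this is not stated. The fit was tested on simulated data. Fah was tested by exact permutation with scipy 1.17.1. RPKM is scaled to library size, so a few abundant transcripts in 1 library lower its other values. Of the table's names 27 had been turned into dates and 2 were repeated, and 17834 matched the mm10 annotation that gave the coordinates. Libraries were compared within groups, and none was close enough to another to count as a repeat.

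Members and the 53 lists were chosen with earlier results of these data known. Genes named were Fah and its 6 partners, the 12 largest rises and 12 largest falls among genes whose D0 or vehicle mean reached 5 RPKM, the sex chromosome genes, and per list the 3 called members with the smallest p and the most abundant member, and other genes with values were named after those were seen. Some genes that the rule names are not reported here. Alternatives covered the pseudocount, filter, scaling, libraries in the fit, variance model, replicate block and each library left out.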

Additional observations from a re-analysis of the deposited data

Results flagged for a closer look

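Single libraries stood apart from the rest of their group in 20 of 364 groups checked (182 genes in 2 groups each), or 5.49%, by the gap to the nearest library on the log2 scale, and chance alone picks about 1 in 20 groups. Vehicle 1 accounted for 4 of them. It was the high liver for Axin2 (3.33 RPKM, others 0.623 to 1.47) and Cps1 (907, others 438 to 543). It was the low liver for Pck1 (274, others 805 to 1333) and Sds (83.3, others 212 to 460.4). Vehicle 1 is also the library with pancreatic transcripts, and their part in these values was not tested. Vehicle 8 was high for Sult3a1 (2.43 RPKM, others at most 0.308) and the Y-linked Uty (3.28, others at most 1.34).

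Among D0 livers, D0 5 stood apart in Acta2 (13.5 RPKM, others at most 0.858), Sprr1a (1.52, others at most 0.144), Slc30a10 (10.8, others 14.0 to 16.7) and Dlk1 (0.0344, others at most 0.0119). D0 3 was high for Acaa2 (624) and low for Tfrc (37.6) and Ugt2b35 (300.1). D0 2 was high for Cyp4a12a (0.411), Igfbp2 (263) and Ly6g (0.364). D0 4 was high for Eif2s3y (0.0454, others at 0) and Spink1 (0.371), D0 1 low for Cdkn2c (1.90) and D0 6 low for Gclc (785). These D0 values are all in RPKM.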

How the results depend on the processing

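Under 27 other settings the count of called genes ranged from 6423 to 8541 against 7278, within 1.5 times of it. Leaving out 1 library at a time gave 6841 to 7679. The lowest count came without D0 1 and D0 2 and the highest with array weights. The settings without D0 1 and D0 2 and without vehicle 1 and vehicle 8 were chosen after seeing the data. Replicate numbers of D0 and vehicle livers did not pair, since same-numbered libraries had correlated deviations of -0.22 to 0.23, and a replicate block gave 7129 called genes, 6924 of them also called without it. Of 208 genes named by the rule, none that was called changed direction, 13 gained a call in some setting and 9 lost one. Sign changes of genes that stayed uncalled were not counted. List medians were counted as reversed in 5 cases. The integrated stress response became -0.11 without D0 1 and D0 2, sterol genes -0.045 with array weights, -0.0347 without vehicle 1 (leaving out 1 library at a time gave -0.0347 to 0.240) and -0.00405 without vehicle 1 and vehicle 8, and sex chromosome genes -0.56 with a filter of 1 RPKM in 7 libraries, which drops low Y genes. For the others the cause was not tested. Some small list medians also changed sign and are outside that count. Wnt feedback and YAP targets went from 0.037 to -0.046 with quantile normalization and to -0.102 without vehicle 1 and vehicle 8. With quantile normalization, fatty acid and triglyceride synthesis went from 0.089 to -0.053 and apolipoproteins from 0.005 to -0.033. The relation of Fah to Col1a1 lost its call in 6 of the settings that leave out 1 vehicle liver, and Fah against Afp gained one with quantile normalization (r = -0.88). Depth limits genes near 0.5 RPKM, where a gene listed at 0 may still be expressed.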
